A study of Macaca mulatta with 18 samples.

Results

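Gene expression in the striatum (STR) was compared with that in the prefrontal cortex (PFC) of the same 6 rhesus monkeys, separately in animals of Chinese and of Indian origin. The comparison used 12 of the 18 brain samples of the series, and the other 6 came from the cerebellum (CER). Ages were 10.5, 11 and 11.5 years for the 3 animals of Chinese origin, and 7.5, 15 and 16 years for the 3 of Indian origin. The labels give no treatment, and all were fed a standard stock diet with fruits and vegetables. The origins also differ in early life, since only the Indian-origin animals had lived at the primate center from birth. For each gene, region and origin the deposited tables hold 1 pooled FPKM (fragments scaled to exon length and to the reads of the library), the authors' mean over the 3 animals. Paired values below are for Chinese origin first and Indian origin second. The spread between animals and the depth of each library are not known here, no test was made, and the 2 origins are the only repeat of the comparison. All 6 samples of a region shared 1 sequencing lane and 1 Cuffdiff run, so region, lane and run cannot be told apart.

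A gene was compared when Cuffdiff listed its status as OK in both regions, when at least 1 of its 4 FPKM values reached 1, and when no value was listed at 0. Of 30246 genes, 15135 had status OK in both regions, 14681 of these reached an FPKM of 1, and 14074 remained after 607 genes with a value listed at 0 were left out. The log2 ratio of STR over PFC was computed within each origin and centred on its median over the 14074 genes, which before centring was 0.07 for Chinese and -0.03 for Indian origin. A gene was called when its centred log2 ratio reached 1, a 2-fold difference, in the same direction in both origins.

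The striatum is the input nucleus of the basal ganglia. Most of its neurons are inhibitory projection neurons that receive glutamate from the cortex and dopamine from the midbrain, and they are divided into a direct pathway, with D1 dopamine receptors, substance P and dynorphin, and an indirect pathway, with D2 dopamine receptors, the adenosine receptor ADORA2A and enkephalin. The prefrontal cortex is built mainly from layered excitatory neurons that use glutamate, with a minority of local inhibitory interneurons, and the 2 regions arise from different parts of the embryonic forebrain, the subpallium and the pallium, under different transcription factors.

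The labelled regions were checked against marker genes of striatum, cortex and cerebellum. The FPKM of 10 striatal markers summed to 4059 and 3668 in STR, against 352.9 and 319.8 in PFC and 268.8 and 294.8 in CER. The 6 cortical markers summed to 548.7 and 470.9 in PFC and to 82.7 and 16.7 in STR, and with 235.5 and 208.7 in CER they were not specific to cortex. The 4 cerebellar markers summed to 6.49 and 5.93 in STR and to 8.42 and 6.11 in PFC, against 1268 and 1240 in CER. In both origins each region had the highest sum of its own markers. The sums hold listed values of any status, and PPP1R1B, ADORA2A, DRD2 and GABRA6 did not have status OK in STR. A few genes weigh most in them. For Chinese origin, PPP1R1B had 1165, TAC1 1127 and PENK 894.5 in STR, and SLC17A7 had 405.9 in PFC. The cortical sum in STR was 15.1% and 3.55% of the PFC sum, which is a 4.95-fold higher sum in the STR of Chinese-origin monkeys. In PFC the cortical sum was 1.17-fold higher in Chinese origin, and in STR the striatal sum was 1.11-fold higher.

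**Figure D1:**
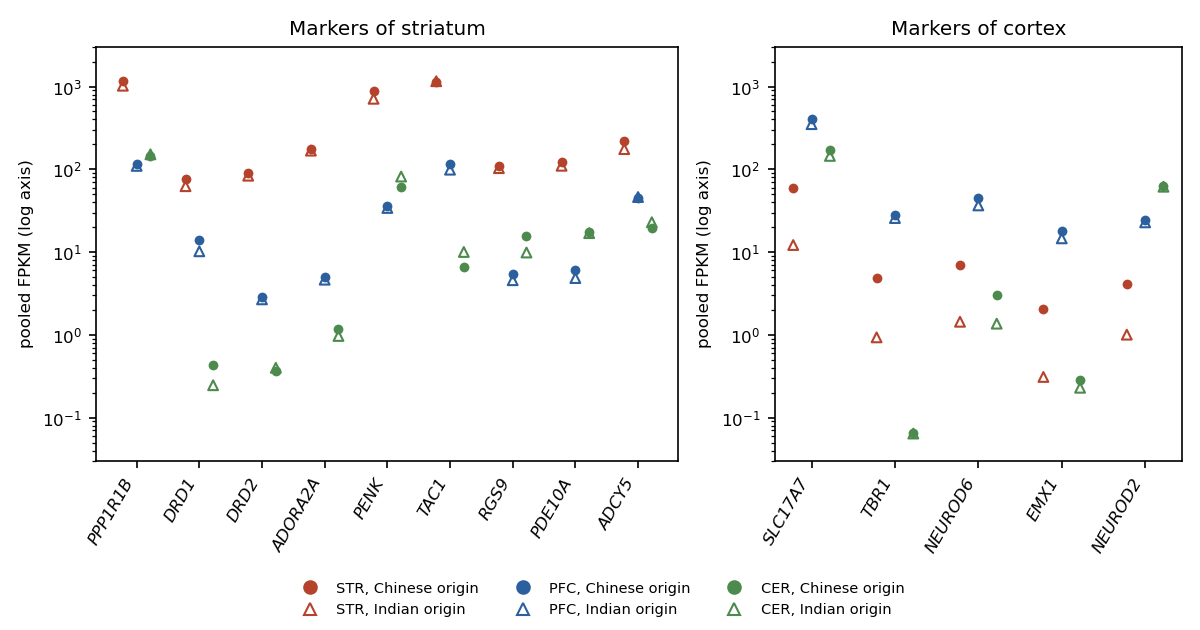
Pooled FPKM (log axis) of 9 striatal markers (left) and 5 cortical markers (right) in STR, PFC and CER. Filled circles are Chinese origin and open triangles Indian origin. Every striatal marker shown was highest in STR, and the cortical markers in STR lay higher in Chinese than in Indian origin, as for SLC17A7 with 59.6 against 12.2.

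The regional difference was alike in the 2 origins for most genes. In both origins 436 genes (3.1% of the 14074) were at least 2-fold higher in STR and 639 (4.54%) at least 2-fold higher in PFC. Only 31 genes (0.22%) were at least 2-fold higher in STR in one origin and at least 2-fold higher in PFC in the other. At a 4-fold difference in both origins, 84 genes were higher in STR and 117 in PFC, and at an 8-fold difference 31 were higher in STR and 8 in PFC. The sign was the same in both origins in 11700 genes, 83.2% of those compared. Across the 14074 genes the centred log2 ratios of the 2 origins had a Pearson r of 0.82 and a Spearman rho of 0.81, given as a description, since genes are not independent and both origins were sequenced in the same lanes. In bulk tissue, fewer cells of a type and less RNA per cell cannot be told apart, and this holds for every difference below.

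The difference between the origins is the measure of error that the pooled values allow. It had a median size of 0.17 and a 95th percentile of 0.87 on the log2 scale. It was largest for weakly expressed genes, with a median size of 0.42 below a mean FPKM of 1, 0.25 from 1 to 5, 0.15 from 5 to 20 and 0.13 from 20 to 100. Above a mean FPKM of 100 (1333 genes) it was 0.18, with a 95th percentile of 0.69, larger than in the 2 classes before it. Below a mean FPKM of 1 the 95th percentile was 1.77, and from 1 to 5 it was 1.1, both above the 2-fold threshold. In these 2 classes 32 and 160 genes were called higher in STR, and 11 and 215 higher in PFC. The difference between the origins holds true differences between origins, ages, animals and dissections as well as noise. Near the threshold, 94 genes higher in STR had a smaller log2 ratio between 1.0 and 1.1 and 119 lay between 0.9 and 1.0 and were not called. For genes higher in PFC these counts were 89 and 126.

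**Figure D2:**
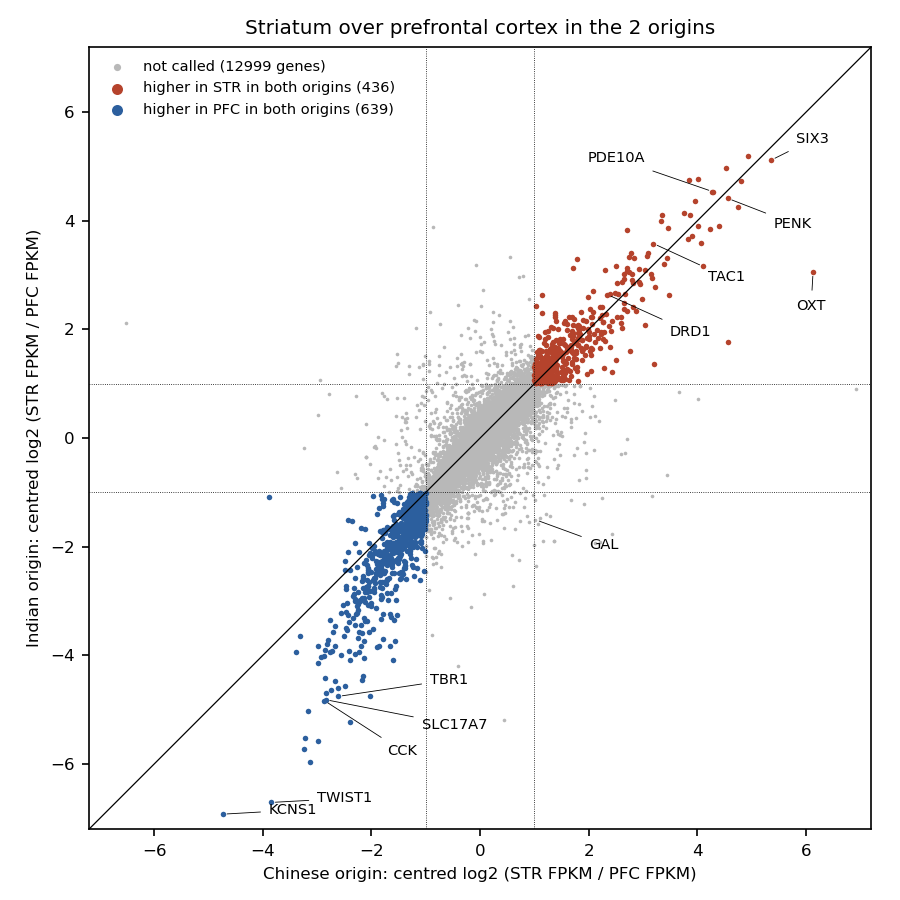
Centred log2 ratio of STR over PFC FPKM in Chinese origin (x axis) and Indian origin (y axis) for the 14074 genes compared, 1 point per gene. Red points are the 436 genes called higher in STR and blue points the 639 called higher in PFC, the dotted lines mark 2-fold differences and the solid line equal ratios. The red points lie around the line and most blue points lie below it.

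The genes with the largest difference towards STR included members of the striatal lists and genes in none of them. SIX3 (ENSMMUG00000014824, chromosome 13 from 45081891 to 45083171 in mmul1), a homeodomain factor of the developing ventral forebrain, had an FPKM of 34.8 and 28.9 in STR against 0.805 and 0.849 in PFC. Its centred log2 ratios were 5.36 and 5.12, the largest smaller ratio of any gene called, and its CER values were 0.0943 and 0.0983. MME, the neprilysin peptidase that degrades enkephalins, had 29.4 and 27.3 in STR against 0.911 and 0.767 in PFC. The STR and PFC values of both genes were far apart, and the origins lay close together within each region.

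GPR6, an orphan receptor coupled to stimulatory G proteins, had an FPKM of 47.7 and 43.5 in STR against 1.61 and 1.66 in PFC, and 0.102 and 0.219 in CER. PENK (ENSMMUG00000006775, chromosome 8 from 59028670 to 59033795), the enkephalin precursor, had 894 and 711 against 35.9 and 34.1. PDE10A (ENSMMUG00000023614, chromosome 4 from 162106796 to 162448136), the dual cAMP and cGMP phosphodiesterase enriched in projection neurons, had 124 and 110 against 6.04 and 4.85. All 3 differed between the regions by more than 4 on the log2 scale in both origins. RGS9, a GTPase activator that ends dopamine and opioid receptor signals, had 111 and 103 in STR against 5.47 and 4.57 in PFC. In CER, RGS9 had 15.7 and 9.88, above its PFC level.

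Of the genes with the largest differences, several were in none of the lists. BSPRY, a B-box and SPRY domain protein, had an FPKM of 19.2 and 19.5 in STR against 0.788 and 0.638 in PFC. COCH, the secreted protein cochlin, had 193 and 186 against 12.6 and 11.0, and LRRC10B, a leucine-rich repeat protein, had 55.4 and 59.9 against 3.26 and 4.11. These 3 genes had centred log2 ratios between 3.87 and 4.96. PNMT (chromosome 16 from 49763795 to 49766312), which encodes the enzyme that turns noradrenaline into adrenaline, had 36.0 and 26.9 in STR against 1.26 and 1.43 in PFC. PNMT lies on the same chromosome as PPP1R1B, which is listed from 49721193 to 49731530. SLC5A7, the choline transporter, is described with the cholinergic genes.

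**Figure D3:**
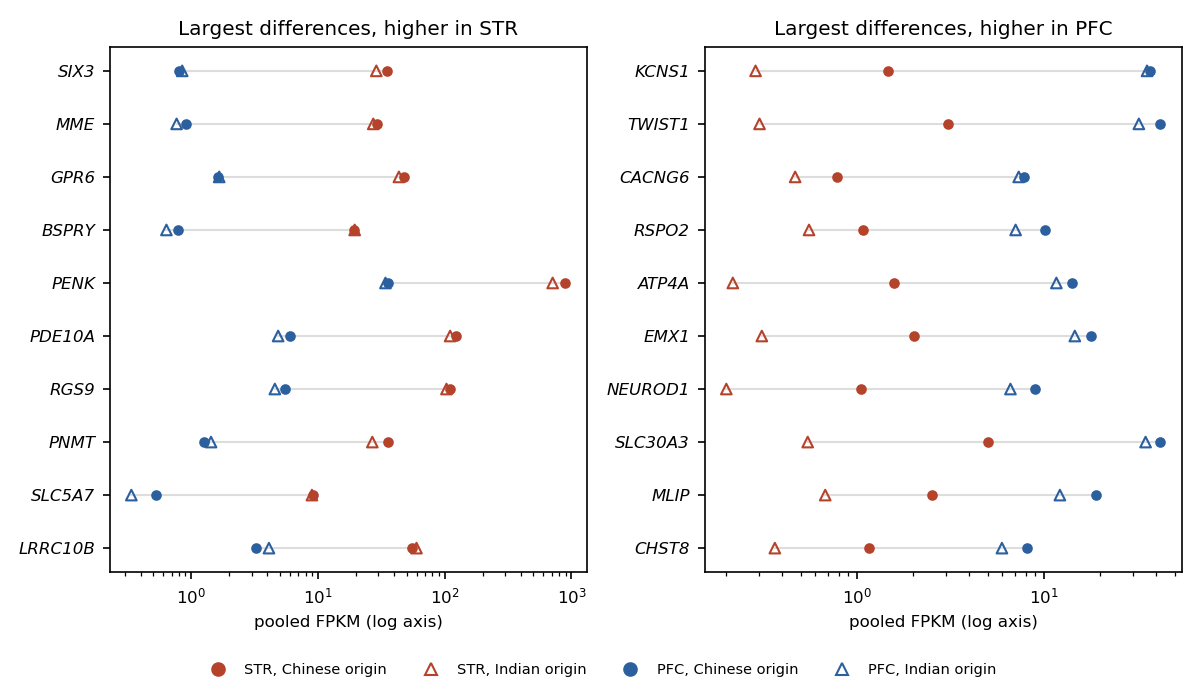
Pooled FPKM (log axis) of 10 named genes among those with the largest smaller ratio in each direction, left for genes higher in STR and right for genes higher in PFC. Red is STR, blue is PFC, filled circles are Chinese origin and open triangles Indian origin. On the left the origins nearly coincide, and on the right the STR circles lie to the right of the STR triangles, as for SLC30A3 with 5.04 against 0.546.

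Among called genes with a symbol, small RNAs aside, the leading gene by level towards STR was APOC1, an apolipoprotein. It had an FPKM of 3224 and 2538 in STR against 299 and 151 in PFC and 29.3 and 24.5 in CER. TAC1, the precursor of substance P, followed with 1127 and 1158 in STR against 117 and 98.9 in PFC. HPCA, the calcium sensor hippocalcin, had 1117 and 1046 against 189 and 167. On the FPKM scale these genes were among the most abundant messages of the striatum, and each was at least 5-fold lower in the cortex. ARPP19, a phosphatase 2A inhibitor, had 877 and 837 against 251 and 188. PPP1R1A, the phosphatase 1 inhibitor 1, had 402 and 415 against 108 and 107. Its listed locus is the same as that of PDE1B, so that reads of both genes may have been divided between them. NPY, a peptide of striatal and cortical interneurons, had 477 and 404 against 173 in both origins, and SPARC, a matrix protein, had 558 and 446 against 209 and 144.

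Of all genes compared, 3.1% were called higher in STR and 4.54% higher in PFC. The counts of every list below are to be read beside these shares, and counts of 0 or 1 in a short list cannot be told from them. Of the list of striatal projection neuron signalling genes, 18 of 27 measured members were called higher in STR and 1 higher in PFC, with a median of 1.96 on the log2 scale beside 0.00 over all genes compared. The G protein genes were among them: GNAL, the stimulatory G protein subunit that couples D1 receptors and ADORA2A, had 114 and 83.0 in STR against 27.2 and 21.1 in PFC, and GNG7, its gamma partner, had 376 and 312 against 56.4 and 50.3. ADCY5, the main striatal adenylyl cyclase, had 221 and 175 against 44.6 and 46.2. Both G protein subunits and the cyclase were thus higher in STR in both origins. Among enzymes that break down cyclic nucleotides, PDE1B had 290 and 240 against 54.9 and 50.0, and PDE7B had 37.8 and 32.4 against 7.6 and 6.87. PDE1B shares its listed locus with PPP1R1A, and GNG7 and PDE7B share theirs with genes without a symbol. Reads at these loci may have been divided between the genes. RASD2, the striatal GTPase Rhes, had 262 and 222 against 32.6 and 26.1, and PTPN5, the striatal-enriched tyrosine phosphatase STEP, had 353 and 272 against 91.1 and 79.0.

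Other called members of this list included ANO3, PRKCH, STRIP2, KCNAB1, CAMK4 and SPOCK3, with mean centred log2 ratios from 1.29 for CAMK4 to 3.21 for ANO3. The member called higher in PFC was SYT10, a synaptotagmin, with 0.706 and 0.445 in STR against 1.61 and 1.17. Several members of the list were not called: PDE2A, another phosphodiesterase, had nearly equal values, 165 and 124 in STR against 158 and 128 in PFC. NGEF, GNB5, RGS20 and RGS7BP had positive mean ratios between 0.44 and 0.90, and GPR155, DUSP14 and SYNPO2 had negative ones between -0.47 and -0.10.

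The status rule left out many defining striatal genes, because Cuffdiff marked them as FAIL or as not tested in a region. In all, 2360 genes without a 0 reached an FPKM of 1 but were outside the rule, 2156 of them with FAIL and 196 with no test. PPP1R1B, which encodes DARPP-32, the phosphoprotein that integrates dopamine and glutamate signals, was FAIL in both regions and had listed values of 1165 and 1022 in STR against 117 and 110 in PFC. ADORA2A was FAIL in both regions with 175 and 168 against 5.0 and 4.64, and its listed locus overlaps that of SPECC1L, so that reads of the 2 genes may have been divided between them. RGS14, FAIL in STR, had 417 and 367 against 31.4 and 27.1, and RASGRP2, FAIL in both, had 69.6 and 57.7 against 10.9 and 9.75. Using the centring of the genes compared, their ratios ran from 2.60 for RASGRP2 to 5.21 for ADORA2A. With every status admitted, 575 of 16434 genes (3.5%) were higher in STR and 810 (4.93%) higher in PFC, and 24 of 35 measured projection neuron signalling genes were higher in STR.

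The dopamine receptors differed in their regional preference. DRD1 (ENSMMUG00000005147, chromosome 6 from 171878608 to 171879949) had an FPKM of 75.7 and 62.5 in STR against 14.2 and 10.2 in PFC, with centred log2 ratios of 2.34 and 2.64, and it was called higher in STR. DRD5, the other D1-class receptor, was called higher in PFC, with 1.80 and 0.877 in STR against 6.03 and 4.93. The D1-class receptors were therefore on opposite sides, and the level of DRD5 was low in both regions. Outside the status rule, DRD2, marked FAIL in STR, had 89.8 and 83.7 against 2.88 and 2.69, and DRD3, not tested in PFC, had 9.64 and 8.78 against 0.338 and 0.288. In CER, DRD1 and DRD2 were below an FPKM of 0.5.

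Named enzymes of dopamine synthesis and breakdown did not reach the 2-fold difference in both origins. The monoamine oxidase MAOB had 64.7 and 59.0 in STR against 66.0 and 65.5 in PFC, and MAOA had 20.6 and 19.8 against 24.8 and 23.4. Their centred log2 ratios lay between -0.34 and -0.10. TH, the rate-limiting enzyme of dopamine synthesis, which is made mainly in midbrain cell bodies, had 0.942 and 0.719 in STR against 1.25 and 2.71 in PFC, ratios of -0.49 and -1.89 that differed between the origins. GCH1, which makes the cofactor of TH, had 5.72 and 4.26 against 3.76 and 3.64. The dopamine-receptor partners NSG1, CALY and PPP1R9B had mean ratios from -0.52 to -0.17. Of the 10 measured members of the list, 1 was called in each direction and the median was -0.22.

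Genes of both projection pathways were higher in STR. In the direct pathway list, 5 of 8 measured members were called higher in STR and 0 higher in PFC, with a median of 1.68. Besides TAC1 and DRD1 these were PDYN, the dynorphin precursor, with 97.3 and 95.4 in STR against 25.4 and 19.6 in PFC, and the transcription regulators EBF1 and EYA1, with 1.84 and 1.14 against 0.597 and 0.269 and with 6.89 and 6.21 against 2.33 and 2.12. In the indirect pathway list, 5 of 8 were called higher in STR and 0 higher in PFC, with a median of 1.28. These were PENK, GPR6, KCNK2, TTC12 and SP9. KCNK2, a two-pore potassium channel, had 42.7 and 33.9 against 7.02 and 5.53, and SP9, a transcription factor needed for indirect pathway neurons in mice, had 6.14 and 5.16 against 2.46 and 2.42. Neither pathway list can be compared with the other here, since receptors that define the indirect pathway fell outside the status rule.

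Among 24 measured striatal and subpallial transcription factors, 10 were called higher in STR and 2 higher in PFC, with a median of 0.94. Those higher in STR were SIX3, RXRG, DLX6, BCL11B, FOXO1, EBF1, MEIS1, RARB, SP9 and ZFHX3. RXRG, a retinoid X receptor, had 66.4 and 71.2 in STR against 4.69 and 4.09 in PFC. BCL11B (CTIP2), which is required for projection neuron differentiation, had 12.5 and 9.19 against 2.83 and 1.89, and DLX6, a subpallial homeobox factor, had 17.9 and 14.5 against 3.55 and 3.35. The DLX genes were divided, since DLX1, with 5.48 and 3.72 in STR against 18.4 and 16.8 in PFC, and DLX2, with 1.30 and 0.650 against 2.83 and 2.58, were the 2 members called higher in PFC. FOXP2 was close to equal, with 3.95 and 2.19 in STR against 3.63 and 2.88. Outside the status rule, MEIS2 had 77.6 and 69.1 against 25.1 and 21.6, and FOXP1, with 25.6 and 17.8 against 12.8 and 9.47, had ratios of 0.92 and 0.94.

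Markers of cholinergic neurons, the large interneurons of the striatum, were also higher in STR. SLC5A7, which takes up choline for acetylcholine synthesis, had an FPKM of 9.06 and 8.96 in STR against 0.531 and 0.337 in PFC. PRIMA1, the membrane anchor of acetylcholinesterase, had 9.81 and 7.66 against 2.01 and 2.47, and TACR1, the substance P receptor, had 3.67 and 2.79 against 1.15 and 0.712. These 3 of 6 measured members were called higher in STR and 0 were called higher in PFC. Genes not tested in PFC had low values there: CHAT, which synthesises acetylcholine, had 2.22 and 1.83 in STR against 0.103 and 0.0276, and LHX8, a homeobox factor of cholinergic neurons, had 4.36 and 4.54 against 0.0447 and 0.0823. With every status admitted, 10 of 14 members were higher in STR. The muscarinic receptors CHRM1 and CHRM3 were not called, with mean ratios of -0.60 and -1.14.

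The neuropeptide list was divided, with 8 of 35 measured members called higher in STR, 11 higher in PFC and a median of -0.55. Towards STR, NTS, the neurotensin precursor, had 7.10 and 13.7 in STR against 0.402 and 1.16 in PFC, and OPRK1, the dynorphin receptor, had 10.5 and 7.46 against 3.58 and 3.62. TRH had 6.33 and 3.84 against 2.94 and 0.732, where the PFC values of the origins were far apart. Towards PFC, CCK (cholecystokinin) had 141 and 29.5 in STR against 977 and 861 in PFC. VIPR1, a receptor of vasoactive intestinal peptide (VIP), had 1.58 and 0.373 against 10.8 and 9.83, and SSTR3, a somatostatin receptor, had 1.41 and 0.727 against 6.67 and 5.43. SST itself was not called, with 278 and 230 against 316 and 276. OXT, the oxytocin precursor, which is in no list and was chosen after its values were seen, had 28.2 and 17.1 in STR against 0.382 and 2.10 in PFC and was listed at 0 in CER in both origins.

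Interneuron genes were likewise divided, with 6 of 30 measured members called higher in STR, 8 higher in PFC and a median of -0.23. GAD2, a GABA-synthesising enzyme that projection neurons also use, had 304 and 269 in STR against 80.5 and 72.4 in PFC, and SLC32A1, the vesicular GABA transporter, had 84.3 and 69.3 against 34.0 and 30.1. GAD1, the other synthesising enzyme, was not called, with 109 and 86.7 against 140 and 116. GAD2 and GAD1 were thus on different sides of 0 in both origins. CALB1, the calbindin of projection neurons and some interneurons, had 132 and 103 against 39.6 and 28.2. Higher in PFC were VIP, with 4.19 and 1.46 in STR against 19.4 and 14.2, CRH, with 4.12 and 5.29 against 21.1 and 15.4, CRHBP, with 5.09 and 2.54 against 20.3 and 18.4, and HTR3A, with 1.48 and 0.537 against 5.28 and 4.82. PVALB had 152 in STR in both origins against 302 and 270, ratios of -1.06 and -0.80, and was not called.

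Among receptors for serotonin and adrenaline, 2 of 17 were called higher in STR and 7 higher in PFC, with a median of -0.65. ADRA2C, the striatal alpha-2 adrenergic receptor, had 34.1 and 31.7 in STR against 4.95 and 3.69 in PFC, and HTR4 had 6.68 and 4.41 against 1.33 and 1.28. In the other direction, ADRA1B had 4.04 and 1.58 against 17.0 and 16.1, HTR1A had 2.19 and 0.789 against 8.32 and 6.87, and HTR2A, an excitatory serotonin receptor of cortical pyramidal neurons, had 10 and 3.66 against 25.8 and 20.7. ADRA2A, another alpha-2 receptor, had 2.50 and 1.38 against 5.21 and 4.22 and was called higher in PFC, the opposite side from ADRA2C.

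Most glial genes had mean ratios above 0 without reaching 2-fold. Over all genes compared, 3.1% were called higher in STR, and the shares of the myelin and endothelial lists called were near this. All 26 measured myelin and oligodendrocyte genes had a mean ratio above 0, with a median of 0.76, and 1 of them, ASPA, was called, with 81.5 and 43.8 in STR against 38.7 and 20.1 in PFC. All 15 measured microglial genes were above 0, with a median of 0.98, and 5 were called: P2RY12, CX3CR1, AIF1, PTPRC and TREM2. P2RY12, a purine receptor of resting microglia, had 42.4 and 32.0 against 19.2 and 11.6. Of 24 astrocyte genes 2 were called, SPARC and CRYM, 16 were above 0 and 8 below, and the median was 0.13. Of 23 endothelial and mural genes 1 was called, ESAM, 20 were above 0 and 3 below, and the median was 0.35. The fractions of glial and neuronal cells in the tissue pieces were not measured, and their part in the other differences was not tested.

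Ependymal and choroid plexus genes had a median of 0.79 over 10 measured members, 3 of which were called higher in STR. AK7 and RSPH1, genes of motile cilia, had 4.58 and 3.50 against 0.908 and 0.809 and 14.3 and 10.2 against 5.49 and 3.87. TTR, the transthyretin of choroid plexus, had 25.8 and 40.1 in STR against 7.35 and 26.3 in PFC and was not called in Indian origin, where its ratio was 0.64. Cytosolic ribosomal protein genes were all above 0, 64 of 64 with a median of 0.46, and 0 were called. The 14 measured reference genes had a median of -0.17 and 0 were called.

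Several genes of retinoid and lipid handling stood out in STR. CRABP1, which binds retinoic acid, had an FPKM of 55.5 and 58.2 in STR against 4.80 and 4.08 in PFC, and the retinoic acid receptor RARB had 27.3 and 22.8 against 11.4 and 9.51, whereas RARA had 4.69 and 2.61 against 9.03 and 6.66 and was called higher in PFC. With RXRG these made 3 of 20 retinoid genes called in STR, 3 in PFC and a median of 0.00. Of 14 measured members of a list of carotenoid and fatty acid genes, 4 were called higher in STR, 0 higher in PFC and the median was 0.51. The list holds the carotenoid and fatty acid genes that the study followed in these animals, and LPL, for which the study listed primers. LPL, lipoprotein lipase, had 82.7 and 58.0 against 10.4 and 8.09. ABCA1, a cholesterol exporter, had 6.86 and 4.78 against 1.5 and 1.43, SCARB1, a receptor that takes up lipoproteins and carotenoids, had 79.2 and 65.8 against 31.2 and 26.5, and RPE65, a retinoid isomerase of the eye related to the carotenoid oxygenases, had 5.38 and 7.37 against 1.75 and 2.25. BCO2, a carotenoid oxygenase, had 14 and 8.28 against 6.74 and 4.10, ratios of 0.98 and 1.04, and fell just short of the call.

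**Figure D4:**
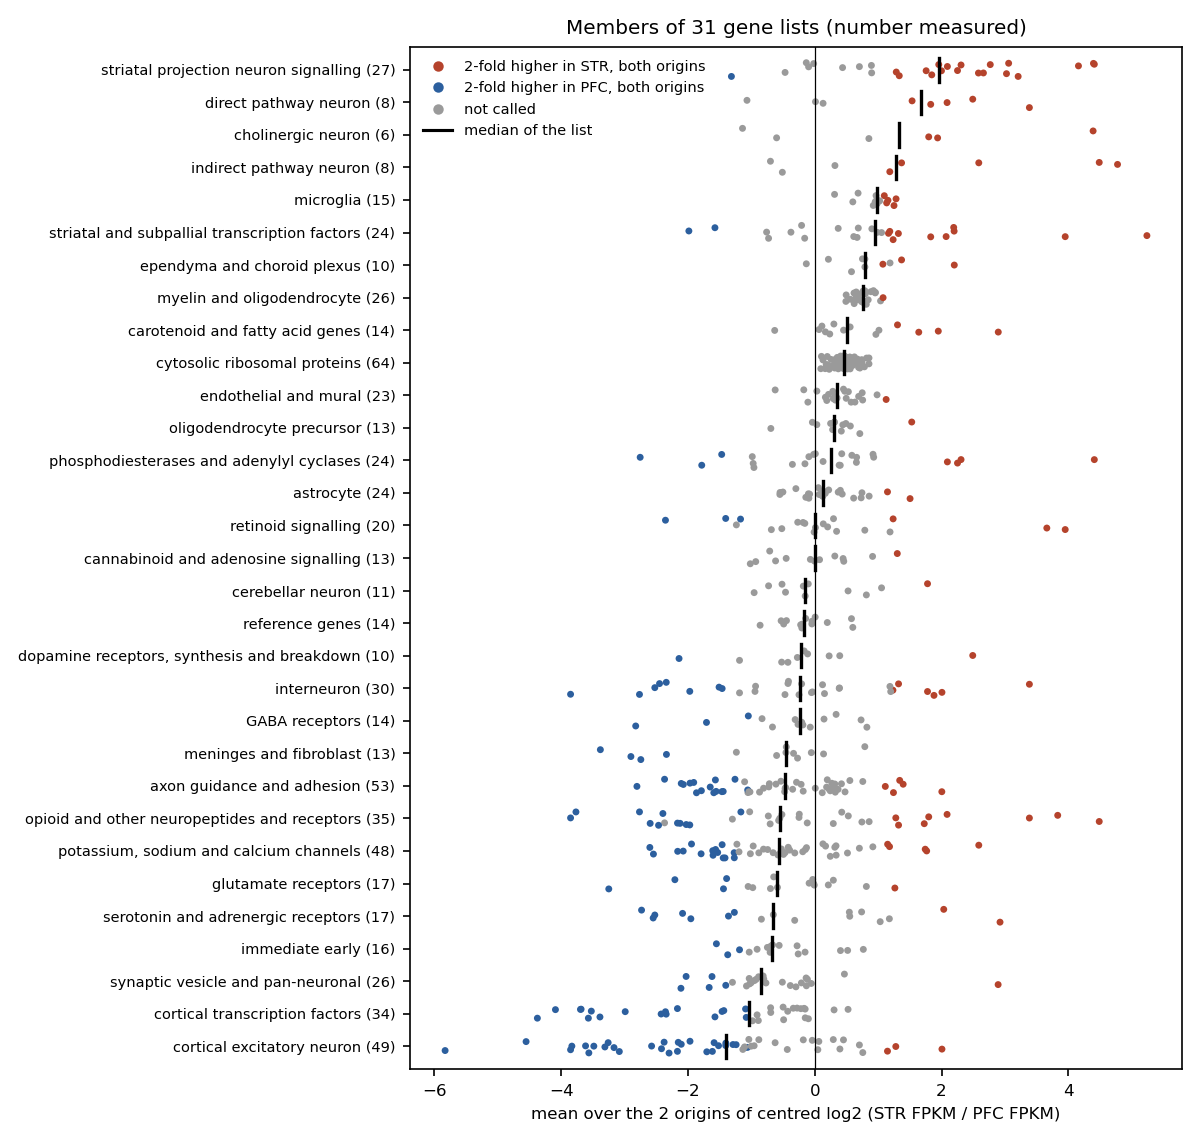
Mean over the 2 origins of the centred log2 ratio of STR over PFC for the measured members of 31 gene lists, 1 point per gene, with the number measured in brackets and the list median as a black bar. Red points were called higher in STR, blue points higher in PFC and grey points were not called. Medians run from -1.40 for cortical excitatory neuron genes to 1.96 for striatal projection neuron signalling genes.

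The genes with the largest difference towards PFC likewise included members of the cortical lists and genes in none of them. KCNS1 (ENSMMUG00000013214, chromosome 10 from 19338302 to 19342692), a modifying potassium channel subunit, had an FPKM of 1.46 and 0.287 in STR against 36.9 and 35.6 in PFC, with centred log2 ratios of -4.73 and -6.92. SLC30A3, the zinc transporter of glutamatergic synaptic vesicles, had 5.04 and 0.546 against 42.0 and 35.0. SLC17A7 (ENSMMUG00000014800, chromosome 19 from 55681846 to 55690040), the vesicular glutamate transporter VGLUT1, had 59.6 and 12.2 against 406 and 351. In each of these genes the PFC values of the origins were close together and the STR value was higher in Chinese than in Indian origin. In CER, SLC17A7 had 169 and 145 and KCNS1 had 0.343 and 0.338.

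CACNG6, a calcium channel gamma subunit, had 0.785 and 0.468 in STR against 7.79 and 7.34 in PFC, and RSPO2, a secreted Wnt agonist, had 1.08 and 0.555 against 10.2 and 7.06. MLIP, a lamin-interacting protein, had 2.51 and 0.677 against 18.9 and 12.2, and CHST8, a sulfotransferase, had 1.17 and 0.364 against 8.13 and 5.97. ATP4A, the catalytic subunit of the proton pump known from the stomach, had 1.57 and 0.217 against 14.2 and 11.7, and its CER values of 196 and 154 were higher than both. TWIST1, a basic helix-loop-helix factor, had 3.07 and 0.301 against 41.9 and 32.2. The locus listed for TWIST1 is shared with 8 other genes, so its own position is not given here, and reads of TWIST1 and its neighbours may have been divided between them.

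Among the genes called higher in PFC with the highest FPKM there, STMN1, the microtubule regulator stathmin, had 1099 and 939 in STR against 2356 and 2057 in PFC. FXYD7, a brain regulator of the sodium pump, had 572 and 360 against 1471 and 1169, and CHN1, a Rac-regulating chimaerin, had 605 and 507 against 1239 and 1043. RTN1, a reticulon of the endoplasmic reticulum, had 450 and 279 against 922 and 801. STMN1 and CHN1 were close to the 2-fold threshold in both origins, and FXYD7 and RTN1 differed more in Indian origin. CAMK2A, the calcium-dependent kinase of excitatory synapses, had 354 and 185 against 816 and 729.

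Of 34 measured cortical transcription factors, 17 were called higher in PFC and 0 higher in STR, with a median of -1.03. With every status admitted, 17 of 39 were higher in PFC and 1 higher in STR, the corepressor TLE4, marked FAIL in STR, with 62.8 and 42.1 in STR against 25.2 and 20.6 in PFC. EMX1, the homeobox gene of the dorsal pallium, had an FPKM of 2.03 and 0.310 in STR against 17.9 and 14.7 in PFC. TBR1, a deep-layer factor, had 4.82 and 0.933 against 28.0 and 25.8. The centred log2 ratios of TBR1 were -2.61 and -4.76. Of the NEUROD factors, NEUROD6 had 6.98 and 1.44 against 44.6 and 36.6, NEUROD2 had 4.07 and 1.01 against 24.5 and 22.9, and NEUROD1 had 1.06 and 0.200 against 8.97 and 6.63. NEUROD1 and NEUROD2 were higher still in CER, with 182 and 165 for NEUROD1 and 62.6 and 61.6 for NEUROD2.

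Several layer-associated factors were among those called higher in PFC. MEF2C had 29.5 and 10.1 in STR against 152 and 120 in PFC, and LMO4 had 131 and 73.5 against 534 and 503. RORB, a layer 4 gene, had 4.22 and 1.58 against 14.2 and 11.9, CUX2, an upper-layer gene, had 2.97 and 1.41 against 11.6 and 9.05, and FEZF2, the selector of subcerebral projection neurons, had 4.6 and 2.67 against 16.1 and 14.9. BHLHE22, OTX1, TSHZ3, SATB1, LHX2 and NFIX completed the called members, with mean ratios from -3.39 to -1.08. Other members were not called, among them BCL11A, a zinc finger factor, with 53.3 and 40.4 in STR against 52.5 and 45.7 in PFC. RORA and NFIA were the measured members above 0, at 0.53 and 0.30.

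Of 49 measured genes of cortical excitatory neurons, 29 were called higher in PFC and 3 higher in STR, with a median of -1.40. Besides those above, MPPED1 had 19.6 and 3.76 in STR against 114 and 93.7 in PFC, and NRN1, the plasticity protein neuritin, had 25.3 and 9.85 against 170 and 140. The 3 members called higher in STR were LAMP5, with 122 and 94.7 against 27.1 and 25.5, OPRK1 and CRYM, with 226 and 189 against 89.6 and 94.2. These were chosen after their values were seen, and LAMP5 and CRYM are also expressed outside cortical excitatory neurons. Among 26 synaptic vesicle and pan-neuronal genes, 5 were called higher in PFC, 1 higher in STR, and the median was -0.85. The vesicle protein SV2 divided by isoform: SV2C had 28.9 and 20.4 in STR against 3.55 and 2.91 in PFC, and SV2B had 51.0 and 26.7 against 171 and 144. SYN1 and SYN2, the synapsins, had 49.8 and 27.3 against 156 and 141 and 38.2 and 20.4 against 93.6 and 81.0.

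Of 48 measured ion channel genes, 5 were called higher in STR and 15 higher in PFC, beside 3.1% and 4.54% of all genes. The median was -0.56. In STR, KCNA4 had 31.1 and 25.6 against 8.90 and 7.74, and KCNH4 had 17.1 and 11.9 against 4.64 and 3.69. In PFC, KCNJ3 and KCNJ6, subunits of G protein-gated potassium channels, had 7.24 and 3.87 against 34.6 and 26.7 and 0.664 and 0.294 against 3.50 and 1.99. Of 17 glutamate receptor genes 1 was called higher in STR, GRM4, with 10.5 and 8.27 against 3.98 and 3.66, and 4 higher in PFC, led by GRM2, with 3.35 and 1.19 against 20.2 and 17.3. Of 14 GABA receptor genes 0 were called higher in STR and 3 higher in PFC, led by the GABA-B subunit GABBR2, with 23.5 and 8.87 against 113 and 89.7. The phosphodiesterases divided likewise, since PDE1A had 21.0 and 7.07 against 87.2 and 75.0 while PDE1B, whose listed locus is shared with PPP1R1A, was higher in STR.

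Genes of axon guidance and adhesion were called in both directions, 5 of 53 measured members higher in STR and 16 higher in PFC, with a median of -0.47. SEMA3A, a repulsive semaphorin, had 9.21 and 6.42 in STR against 1.94 and 1.84 in PFC, and SEMA3C had 3.40 and 2.28 against 13.2 and 10.1. CNTN6, a contactin, had 3.01 and 1.88 against 16.5 and 16.2. Of 16 immediate early genes 0 were called higher in STR and 3 higher in PFC, ARC, JUN and IER5, with a median of -0.68. Of 13 genes of meninges and fibroblasts 4 were called higher in PFC and 0 higher in STR. These were SLC47A1, with 1.20 and 0.484 against 8.22 and 7.41, SLC13A4, with 0.886 and 0.554 against 3.31 and 6.43, FMOD and ISLR. The part of meningeal tissue in the PFC values was not tested.

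The size of the difference towards PFC differed between the origins. Among the 639 genes called higher in PFC, the ratio was closer to 0 in Chinese origin in 560 (87.6%), with a median of -1.46 in Chinese and -1.80 in Indian origin. Among the 436 genes called higher in STR, it was closer to 0 in Chinese origin in 256 (58.7%), with medians of 1.44 and 1.52. For the 117 genes at least 4-fold higher in PFC in both origins, the STR FPKM was higher in Chinese origin in all 117 and at least 2-fold higher in 83, whereas this 2-fold difference was seen in 1 of the 84 genes at least 4-fold higher in STR and in 4.7% of all genes compared. The median log2 ratio of Chinese over Indian FPKM of these 117 genes was 1.30 in STR and 0.25 in PFC, beside 0.31 and 0.20 over all genes. Of the 29 cortical excitatory genes called higher in PFC, 26 were closer to 0 in Chinese origin, a share near the 87.6% of all genes called higher in PFC.

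The cortical markers moved in the same way, with a 4.95-fold higher sum in Chinese-origin STR, and their part in these values was not tested. The origins also differed in age range and shared no animal. In Indian origin alone 1107 genes were at least 2-fold higher in PFC, and in Chinese origin alone 763. Towards STR these counts were 741 and 671.

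**Figure D5:**
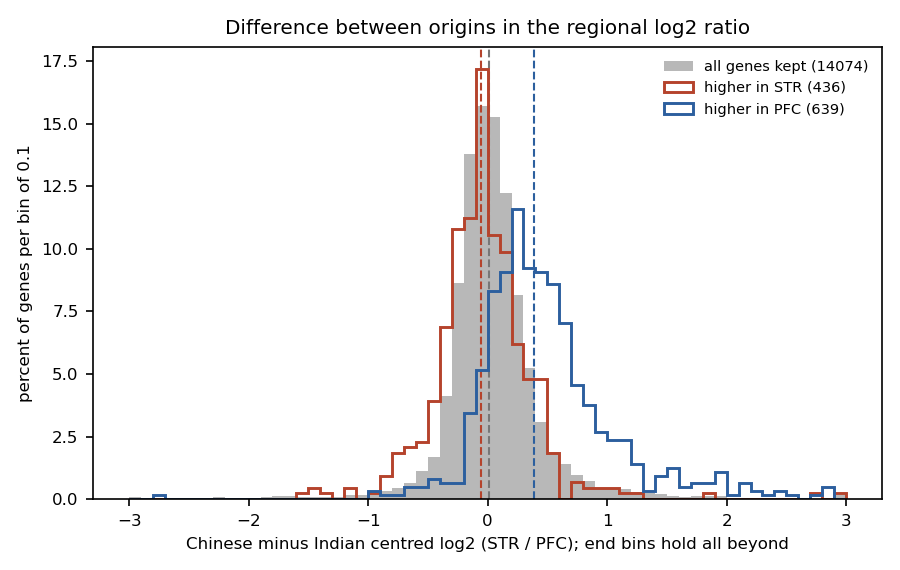
Difference between the origins (Chinese minus Indian) in the centred log2 ratio of STR over PFC (x axis), as the percent of genes per bin of 0.1 (y axis), for all genes compared (grey), genes higher in STR (red) and genes higher in PFC (blue), with dashed lines at the medians. The red median is -0.05 and the blue median 0.39.

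Of the 31 genes on opposite sides in the 2 origins, 18 carried names of small RNAs, 11 had no symbol and 2 had another symbol, GAL and ANKRD62. GAL, the galanin precursor, had an FPKM of 22.2 and 6.50 in STR against 10.4 and 18.8 in PFC, so that it was higher in STR in Chinese origin and higher in PFC in Indian origin. ANKRD62 had 0.341 and 0.838 against 0.144 and 1.78, which is close to the FPKM minimum.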

How the data were processed

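The members compared and the gene lists were chosen with earlier results of these data known. RNA of the 3 regions was sequenced by the authors as single-end reads of 50 bases, checked with FastQC, aligned to mmul1 with TopHat and quantified with Cuffdiff (0.0.5 per the submitters' processing notes). The FPKM values deposited by the authors are pooled over 3 monkeys per origin and region, from a separate Cuffdiff run per region. No counts were analysed, so depth per sample and counting error are unknown. The paper gives mean read numbers per region and origin, which were lowest for STR of Indian origin. The deposited columns of the authors' own comparison of origins (fold change, test statistic, p-value, q-value) were not used, and status served only as a filter. Symbols came from the tables (22265 genes) or, for 749, from the RefSeq-based reference, and 6 older symbols were replaced. Where a symbol had several loci, that with the highest mean FPKM was taken.

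No pseudocount was added and no test was made, since the 4 values per gene are pooled. Named genes were, per direction, the 12 with the largest smaller ratio and an FPKM of at least 5 in the higher region, the 10 with the highest FPKM there, up to 6 called members of each of 31 lists with the largest mean ratio, members stated as not called, the projection neuron, dopamine and cortical transcription factor lists, and the markers. List members named beyond this rule were chosen after their values were seen. Genes whose symbol conflicts between table and reference, and small RNAs, were left out of the text. Some genes of the lists and 2 of the markers are counted but not reported here by name. The rule was run before use on simulated data with the same small noise for every gene and true changes of 4-fold. This checked the computation and does not show how the rule behaves in weakly expressed genes or near 2-fold. Python 3.11.15, numpy 2.4.6, pandas 2.3.3 and matplotlib 3.10.9 were used.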

Additional observations from a re-analysis of the deposited data

Results flagged for a closer look

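GAL and ANKRD62 had opposite regional differences in the 2 origins. The centred log2 ratio of STR over PFC was 1.02 in Chinese and -1.50 in Indian origin for GAL, and 1.17 and -1.05 for ANKRD62. With 1 pooled value per region and origin the difference between the origins was not tested.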

How the results depend on the processing

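The counts of genes higher in STR (436), higher in PFC (639) and on opposite sides (31) moved by more than 1.5 times under these settings. A pseudocount of 1 FPKM gave 274 genes higher in STR, and pseudocounts of 0.1 and 1, which admit genes with a value at 0, gave 197 and 159 on opposite sides. Chinese origin alone gave 671 higher in STR, and Indian origin alone gave 741 higher in STR and 1107 higher in PFC. A fold of 1.5 gave 1292, 1392 and 93, and a fold of 4 gave 84, 117 and 1. Within 1.5 times, centring on the reference genes, with every compared locus of each symbol, gave 516 higher in STR and 576 higher in PFC. The share of called genes higher in STR was then 47.3% instead of 40.6%. Centring on genes with a mean FPKM of at least 10, no centring, a minimum of 5 or none and any status kept each of these counts within 1.5 times. The mean of the origins did so for the counts higher in STR and higher in PFC, and was not computed for opposite sides. Of 152 called genes among those that could be named, 0 changed sign under any alternative. The call rule made this nearly certain, since it needs a 2-fold ratio in both origins and the other centrings moved values little. It is therefore no measure of how stable the calls are. Of 31 list medians, 3 changed sign, all close to 0 (cannabinoid and adenosine, retinoid and cerebellar neuron genes). No paired analysis was possible because the pooled values carry no replicate number, and for the same reason no monkey could be left out in turn. Region cannot be separated from lane and run, and precision below an FPKM of 1 is low. The 95th percentile of the difference between the origins was 1.77 below a mean FPKM of 1 and 1.1 from 1 to 5. Both exceed the 2-fold threshold, so in weakly expressed genes differences below 2-fold and calls just above it lie within that spread.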
